A study of Homo sapiens with 6 samples.

Results

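The miR-23, miR-24 and miR-27 clusters were examined in small RNA libraries of extracellular vesicles (EVs) from MDA-MB-231 cells. The members were chosen by name and not by a rule on their values: hsa-miR-23a-3p, hsa-miR-23a-5p, hsa-miR-23b-3p, hsa-miR-24-3p, hsa-miR-27a-3p and hsa-miR-27b-3p, which are 6 of the 832 miRNAs in the table. Earlier results of these data were known when the members were chosen. All 6 were found, and all 6 were among the 517 miRNAs that were tested because at least 3 of the 6 libraries held a count above 0. MDA-MB-231 is a human triple-negative breast cancer line. Its EVs (231 EV, n = 3, genotype WT) were compared with EVs of the same line after knockdown of ACO1 (231/ACO1 KD EV, n = 3), an iron-responsive RNA-binding protein, and all cells were grown in EV-free medium before the vesicles were pelleted by ultracentrifugation. The question of the comparison was which EV miRNAs depend on ACO1. Small RNA libraries do not read ACO1 mRNA, so the knockdown itself was not examined, and the sources used here do not say whether the WT cells carried a control construct, how many knockdown clones were used or whether the libraries came from separate cultures. The exact permutation p-values below therefore measure the spread between these libraries, which may be technical. Those of the edgeR fit rest on a spread pooled over the miRNAs tested and not on each miRNA's own spread.

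MicroRNAs are cut from hairpin transcripts and guide silencing complexes to mRNAs that pair with their seed, bases 2 to 8 from the 5′ end. The human genome carries these miRNAs in 2 clusters, each transcribed as a unit, so that a miR-23, a miR-27 and a miR-24 start out on 1 precursor. miR-23 and miR-27 are broadly expressed and known for roles in blood vessel growth, muscle and fat cell differentiation, and cancer cell metabolism, and miR-24 for roles in the cell cycle and DNA repair. Because cluster neighbours share a transcript while the a and b paralogs share a sequence, the members allow both kinds of partner to be compared within each library.

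The hairpins lie at 2 places in GRCh38, the build named in the labels. On chromosome 19, minus strand, MIR23A (chr19:13836587-13836659), MIR27A (chr19:13836440-13836517) and MIR24-2 (chr19:13836287-13836359) sit within 373 bases, in an exon of the long non-coding gene AC020916.1. On chromosome 9, plus strand, MIR23B (chr9:95085208-95085304) and MIR27B (chr9:95085445-95085541) lie in introns of all 7 C9orf3 transcripts that span them, C9orf3 being a gene for an aminopeptidase. MIR24-1 (chr9:95086021-95086088) closes that cluster, which spans 881 bases, and it is intronic in 6 of the 7 transcripts and overlaps an exon of 1. Both MIR24 hairpins give the same miR-24-3p, so its counts cannot be divided between the clusters. The reference positions come from GENCODE release 29 and are the same in RefSeq.

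The mature sequences show which members can share targets and which reads are hard to tell apart. They are given from 5′ to 3′ as RefSeq lists them (GRCh38.p14), with the seed in capitals.
hsa-miR-23a-3p: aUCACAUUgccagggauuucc
hsa-miR-23b-3p: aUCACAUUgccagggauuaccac
hsa-miR-27a-3p: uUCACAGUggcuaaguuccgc
hsa-miR-27b-3p: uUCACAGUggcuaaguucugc
hsa-miR-24-3p: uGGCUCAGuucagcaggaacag
hsa-miR-23a-5p: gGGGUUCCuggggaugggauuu
Over their first 21 bases the miR-23 paralogs differ by 1 substitution, U19A from miR-23a-3p to miR-23b-3p, and the miR-27 paralogs also by 1, C19U from miR-27a-3p to miR-27b-3p, with positions counted from 1 at the 5′ end. Reads as short as 18 nt were kept, and a read that ends before base 19 names a family but not a paralog. How such reads were assigned is not given in the sources used here.

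Total counts were 224948 to 230562 in 231 EV against 175924, 67873 and 157322 in replicates 1, 2 and 3 of 231/ACO1 KD EV, so 1 count was worth at most 4.45 TPM in 231 EV but 14.7 TPM in 231/ACO1 KD EV replicate 2. TPM is here the share that a miRNA holds of its library's counts, scaled to 1 common sum with no length term. hsa-miR-21-5p, an abundant miRNA of this line, took 28.5 to 31.2% of the counts in 231 EV against 11.7 to 18.4% in 231/ACO1 KD EV. Its smaller share lifts the share of every other miRNA, and TPM is therefore given beside TMM-scaled CPM, which sets the libraries on the bulk of the miRNAs. The median log2 fold change of all 517 miRNAs was 0.3172 with library totals and -0.0319 with TMM. 231/ACO1 KD EV replicate 3 stood apart from the other 2 of its group, with a chi-square per degree of freedom of 22.6 and 17.3 against them, where replicates 1 and 2 differed by 7.21 and the 231 EV libraries by 3.64 to 4.41. In such bulk samples, fewer vesicles of one kind and a smaller load per vesicle cannot be told apart. The 5 miRNAs listed for MDA-MB-231 (miR-21-5p, miR-221-3p, miR-222-3p, miR-100-5p and miR-29a-3p) were all detected and summed to 383466 to 419427 TPM in 231 EV against 213045 to 293964 TPM in the knockdown. Most of both sums was hsa-miR-21-5p, with means of 299864 TPM in 231 EV and 141141 TPM in the knockdown. The sum thus mainly repeats the change of that miRNA, and the others were not summed apart. The 5 epithelial miRNAs of the miR-200 family, which such a line is known to lack, summed to 373 to 486 and 368 to 470 TPM. All 5 were nevertheless detected, with a highest count of 50.

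The 6 members took 3.11, 3.02 and 2.86% of all counts in 231 EV against 3.01, 3.24 and 3.39% in 231/ACO1 KD EV. The groups overlapped in this summed share. With hsa-miR-21-5p left out of the total, the shares were 4.35, 4.38 and 4.09% in 231 EV against 3.42, 3.67 and 4.16% in 231/ACO1 KD EV, and the groups still overlapped, through replicate 3 of each.

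Within both groups the members stood in 1 order, from miR-23a-3p through miR-27a-3p, miR-24-3p, miR-27b-3p and miR-23b-3p to miR-23a-5p, and the library ranges of neighbours in this order did not overlap in either group. By mean TPM over all libraries, miR-23a-3p ranked 16th of the 832 miRNAs, miR-27a-3p 19th, miR-24-3p 27th, miR-27b-3p 41st, miR-23b-3p 64th and miR-23a-5p 349th. What differed was the spacing. The level of miR-23a-3p was 1.96-fold that of miR-27a-3p in 231 EV against 1.26-fold in 231/ACO1 KD EV, while miR-27b-3p stood 2.11-fold and 3.1-fold above miR-23b-3p.

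**Figure D1:**
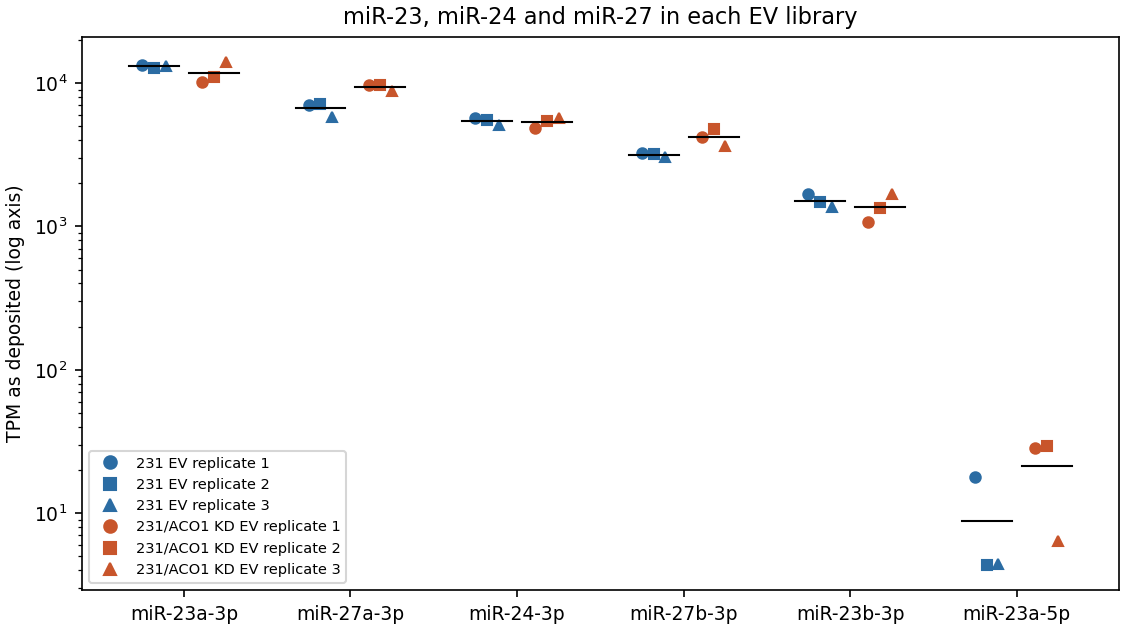
Deposited TPM (log axis) of the 6 members in each library, with 231 EV in blue, 231/ACO1 KD EV in orange, a marker shape per replicate and a black line at the group mean. The 231/ACO1 KD EV points of miR-27a-3p (8765 to 9709 TPM) and miR-27b-3p (3668 to 4774 TPM) lie above all 231 EV points, and those of the other members overlap with 231 EV.

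miR-23a-3p, which leads the chromosome 19 cluster and is known as a repressor of glutaminase, was at 13421, 12786 and 13231 TPM in 231 EV, and at 10226, 11094 and 14067 TPM in the 231/ACO1 KD EV libraries, in the order of their replicate numbers as throughout. Counting error was small beside this spread, since the 95% Wilson interval of the shallowest library, which rests on 753 counts, ran from 10333 to 11910 TPM. Such intervals cover counting error only, because reads without molecular identifiers are not independent molecules. On the TPM scale the groups overlapped, with 231/ACO1 KD EV replicate 3 above every 231 EV library (13146 ± 326 against 11796 ± 2014, SD, n = 3 each). On the TMM scale they did not overlap, at 14669, 14243 and 15748 CPM against 9226, 9264 and 12884 CPM.

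miR-23b-3p, its paralog on chromosome 9, was at 1676, 1479 and 1356 TPM in 231 EV, and at 1074, 1341 and 1672 TPM in 231/ACO1 KD EV. These values overlapped between the groups. After TMM scaling the values were 1832, 1648 and 1613 CPM against 969, 1120 and 1531 CPM, without overlap. In both miR-23 paralogs 231/ACO1 KD EV replicate 3 was the library of its group nearest to 231 EV on the TMM scale.

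miR-27a-3p, known as an inhibitor of adipocyte differentiation, was at 7095, 7178 and 5809 TPM in 231 EV, and at 9629, 9709 and 8765 TPM in 231/ACO1 KD EV. All 3 libraries of the knockdown were above all 3 of 231 EV, with means of 6694 ± 768 and 9368 ± 523 TPM (SD, n = 3 each). After TMM scaling the gap was narrow, at 7755, 7996 and 6914 CPM against 8688, 8107 and 8029 CPM.

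miR-27b-3p, the chromosome 9 paralog, was at 3241, 3214 and 3071 TPM in 231 EV, and at 4218, 4774 and 3668 TPM in 231/ACO1 KD EV, without overlap. After TMM scaling the groups overlapped, at 3542, 3580 and 3655 CPM against 3805, 3986 and 3359 CPM. On both scales 231/ACO1 KD EV replicate 3 was the lowest of its group.

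miR-24-3p, the shared product of both clusters, was at 5672, 5491 and 5080 TPM in 231 EV, and at 4883, 5481 and 5740 TPM in 231/ACO1 KD EV, which overlapped. It was at 6200, 6117 and 6046 CPM against 4406, 4577 and 5257 CPM after TMM scaling, without overlap. miR-23a-5p, the rarely kept arm of the MIR23A hairpin, had 4, 1 and 1 counts in 231 EV against 5, 2 and 1 counts in 231/ACO1 KD EV. A level resting on so few counts was uncertain, and in 231/ACO1 KD EV replicate 2 the Wilson interval of its 29.5 TPM ran from 8.08 to 107.0 TPM.

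Counted over the members, 231/ACO1 KD EV lay above 231 EV without overlap in 2 of 6 on the TPM scale and below it in 0 of 6, where 22.6% and 5.80% of the 517 miRNAs did so. On the TMM scale it lay below 231 EV in 3 of 6 members (miR-23a-3p, miR-23b-3p and miR-24-3p) and above it in 1 of 6 (miR-27a-3p), where 12.8% and 11.6% of the 517 did so. In two-sided exact permutation tests on the log2(TPM + 1) scale, p was 0.1 for miR-27a-3p and miR-27b-3p, the smallest that 3 against 3 libraries allow, and p = 0.4, 0.4, 0.9 and 0.2 by the same exact test for miR-23a-3p, miR-23b-3p, miR-24-3p and miR-23a-5p.

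In edgeR's quasi-likelihood fit of all 517 miRNAs with TMM scaling, 1 of the 6 members passed a Benjamini-Hochberg adjusted p of 0.05, in the downward direction, where 6.0% of the 517 passed in that direction and 2.51% in the upward one. miR-23a-3p fell by 0.51 on the log2 scale (standard error 0.14, edgeR adjusted p = 0.0052), a level of 0.703 times that in 231 EV. This call was lost when 231 EV replicate 1 or 3 or 231/ACO1 KD EV replicate 1 or 2 was left out, with edgeR adjusted p = 0.0503, 0.0929, 0.061 and 0.0768. miR-23b-3p had a change of almost the same size with a larger error, -0.49 (standard error 0.19, edgeR adjusted p = 0.0814). miR-24-3p was at -0.37 (standard error 0.15, edgeR adjusted p = 0.117). The 2 miR-27 paralogs were near 0, at 0.13 for miR-27a-3p and 0.048 for miR-27b-3p (standard errors 0.14 and 0.16, edgeR adjusted p = 0.742 and 0.927). miR-23a-5p was at 0.81 with a standard error of 1.0 (edgeR adjusted p = 0.76), which its counts leave undetermined.

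With library totals in place of TMM, the call moved to another member. 1 of 6 passed again, this time miR-27a-3p, which rose by 0.48 (standard error 0.14, edgeR adjusted p = 0.00854), where 11.2% of the 517 passed upward and 2.51% downward. miR-27b-3p stood at 0.41 (edgeR adjusted p = 0.0693), miR-23a-3p at -0.16 (0.524), miR-23b-3p at -0.14 (0.707) and miR-24-3p at -0.013 (0.969). Every member thus lay higher than under TMM, by about the same step. A change of scaling moves all miRNAs nearly alike, so the distance between the miR-23 and miR-27 paralogs was bound to stay. Without 231/ACO1 KD EV replicate 3, the library that stood apart, the TMM fit called 3 of 6 members lower, where 8.51% of the 517 were lower. These were miR-23a-3p at -0.68 (edgeR adjusted p = 1.02e-08), miR-23b-3p at -0.70 (0.000389) and miR-24-3p at -0.44 (0.00326).

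**Figure D2:**
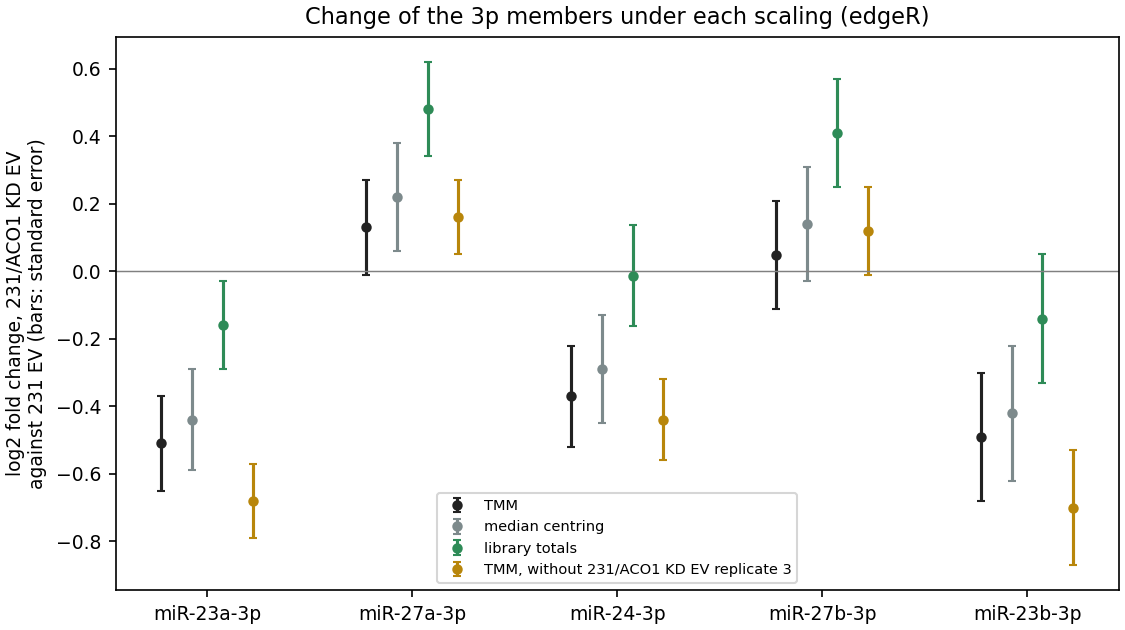
Fitted log2 fold change of the 5 members with a 3p name, 231/ACO1 KD EV against 231 EV, from edgeR under TMM scaling, median centring, library totals, and TMM without 231/ACO1 KD EV replicate 3, with bars of 1 standard error. The miR-23 paralogs and miR-24-3p lie below the miR-27 paralogs under each setting shown, while the position of 0 moves with the scaling, from 0.13 (TMM) to 0.48 (library totals) for miR-27a-3p. A change of scaling alone moves all members nearly alike and so leaves their order in place.

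Ratios of counts within a library need no scaling between libraries, and 7 of them were compared by two-sided exact permutation tests. Between paralogs of 1 seed the groups overlapped. miR-23a-3p made up 88.9, 89.6 and 90.7% of the summed miR-23a-3p and miR-23b-3p counts in 231 EV against 90.5, 89.2 and 89.4% in 231/ACO1 KD EV. The log2 ratio was 3.13 ± 0.14 against 3.12 ± 0.11 (SD, n = 3 each), a difference of -0.012 with a standard error of 0.1 (exact p = 1.0), and the 9 differences between a knockdown and a control library ran from -0.24 to 0.25.

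The miR-27 pair was alike in this. miR-27a-3p made up 68.6, 69.1 and 65.4% of the summed miR-27a-3p and miR-27b-3p counts in 231 EV against 69.5, 67.0 and 70.5% in 231/ACO1 KD EV. The groups overlapped, at log2 ratios of 1.07 ± 0.13 and 1.16 ± 0.12, a difference of 0.087 with a standard error of 0.1 (exact p = 0.5, Benjamini-Hochberg adjusted p = 0.583 over the 7 ratios) and library differences from -0.14 to 0.34. In 231 EV the chromosome 19 copy was thus counted 8.76 times as often as the chromosome 9 copy for miR-23 and 2.1 times as often for miR-27. Neither test excludes a change of paralog ratio smaller than these ranges, and reads too short to name a paralog could draw both groups towards 1 ratio, a part that was not tested.

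Between miR-23a-3p and miR-27a-3p, cluster neighbours of different seed, the ratio was lower in 231/ACO1 KD EV. miR-23a-3p was counted 1.89, 1.78 and 2.28 times as often as miR-27a-3p in 231 EV against 1.06, 1.14 and 1.6 times as often in 231/ACO1 KD EV. The groups did not overlap, and their log2 ratios were 0.98 ± 0.18 and 0.32 ± 0.32, a difference of -0.66 with a standard error of 0.21 (exact p = 0.1, adjusted p = 0.35 over the 7 ratios). This is 0.633 times the ratio in 231 EV. An exact p of 0.1 is the smallest that 3 against 3 libraries can give, so no ratio could reach 0.05 here.

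In the chromosome 9 cluster the same pair of families moved in the same direction with 1 exception. miR-23b-3p was counted 0.517, 0.461 and 0.442 times as often as miR-27b-3p in 231 EV against 0.255, 0.282 and 0.456 times in 231/ACO1 KD EV. Replicates 1 and 2 of the knockdown lay well below 231 EV, and replicate 3 lay between 231 EV replicates 2 and 3. The difference in log2 ratio was -0.56 with a standard error of 0.27 (exact p = 0.2, adjusted p = 0.35 over the 7 ratios). Without 231/ACO1 KD EV replicate 3 it was -0.82, and that of miR-23a-3p to miR-27a-3p was -0.84.

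Taking the paralogs together, a sum chosen after its values were seen, miR-23 was counted 1.46, 1.37 and 1.64 times as often as miR-27 in 231 EV against 0.816, 0.859 and 1.27 times in 231/ACO1 KD EV. The log2 difference was -0.63 with a standard error of 0.21 (exact p = 0.1). In 231 EV, miR-23 was therefore the more abundant seed family in all 3 libraries, and in 231/ACO1 KD EV miR-27 was more abundant in 2 of 3. The chromosome 19 pair against the chromosome 9 pair, summed as clusters, overlapped between the groups, at 4.17, 4.25 and 4.3 in 231 EV against 3.75, 3.4 and 4.27 in 231/ACO1 KD EV (log2 difference -0.16, standard error 0.1, exact p = 0.3, adjusted p = 0.42 over the 7 ratios; -0.083 without 231/ACO1 KD EV replicate 2 and -0.25 without replicate 3). The values were thus further apart between the seed families than between the clusters, though that contrast itself was not tested.

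miR-24-3p was compared with the miR-23 and miR-27 members together and with each family. Its counts were 0.223, 0.223 and 0.217 times the sum of the 4 miR-23 and miR-27 3p members in 231 EV against 0.194, 0.204 and 0.204 times in 231/ACO1 KD EV. The groups did not overlap because both were tight, and the log2 difference was -0.14 with a standard error of 0.027 (exact p = 0.1, adjusted p = 0.35 over the 7 ratios). That sum joins families whose own ratio differed between the groups, so each family was then taken alone, a choice made after the values were seen. Against miR-27a-3p and miR-27b-3p together, miR-24-3p stood at 0.549, 0.528 and 0.572 in 231 EV and at 0.353, 0.379 and 0.462 in 231/ACO1 KD EV, without overlap (log2 difference -0.48, standard error 0.12, exact p = 0.1). Against miR-23a-3p and miR-23b-3p together it stood at 0.376, 0.385 and 0.348 and at 0.432, 0.441 and 0.365, and the groups overlapped (log2 difference 0.15, standard error 0.1, exact p = 0.3).

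As shares of the members' summed counts, miR-23a-3p held 43.1, 42.4 and 46.3% in 231 EV against 34.0, 34.2 and 41.5% in 231/ACO1 KD EV. miR-27a-3p held 22.8, 23.8 and 20.3% against 32, 29.9 and 25.8%. Neither overlapped between the groups, and in each 231/ACO1 KD EV replicate 3 was the library of the knockdown nearest to 231 EV. That library also had the largest hsa-miR-21-5p share of its group, 18.4%, and what sets it apart was not tested.

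**Figure D3:**
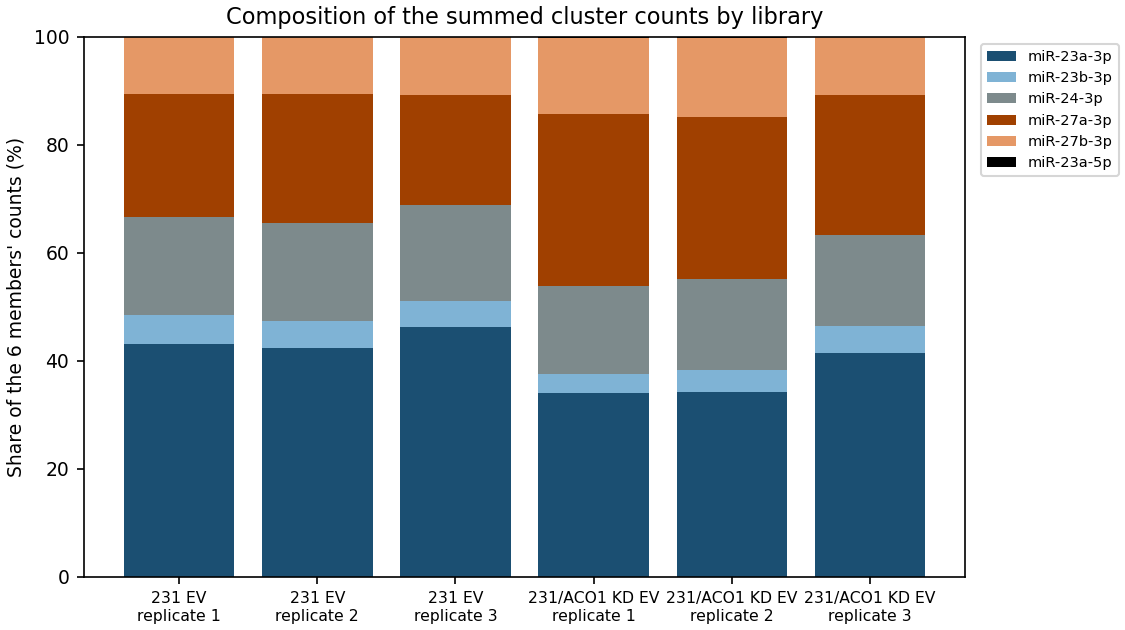
Share (%) of each member in the summed counts of the 6 members, 1 bar per library, with miR-23 in blue, miR-27 in orange and miR-24-3p in grey. The miR-23a-3p segment is 42.4 to 46.3% in 231 EV against 34.0 to 41.5% in 231/ACO1 KD EV, and miR-23a-5p is under 0.1% in each library and cannot be seen.

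The other arms of the same hairpins were rare. miR-27a-5p (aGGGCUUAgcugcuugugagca, seed in capitals), shown because it was the only other arm here that exceeded 10 counts in any library, had 44, 43 and 36 counts in 231 EV against 30, 10 and 64 counts in 231/ACO1 KD EV. The 231 EV libraries were alike while the knockdown libraries enclosed them on both sides, and the fit gave 0.14 with a standard error of 0.29 (edgeR adjusted p = 0.88), which turned to -0.51 (0.33) without 231/ACO1 KD EV replicate 3. The 2 arms of this hairpin thus stood at 35.9, 38.1 and 35.8 counts of miR-27a-3p to 1 of miR-27a-5p in 231 EV and at 55.6, 62.8 and 21.4 to 1 in 231/ACO1 KD EV, a ratio chosen after its values were seen, and replicate 3 lay on the opposite side of 231 EV from replicates 1 and 2. For the MIR23A hairpin the ratio of miR-23a-3p to miR-23a-5p was 1378 in 231 EV against 526 in 231/ACO1 KD EV, overlapping (log2 difference -1.39, standard error 0.91, exact p = 0.2, adjusted p = 0.35 over the 7 ratios). The few miR-23a-5p counts let single libraries move this difference, from -0.99 without 231/ACO1 KD EV replicate 2 to -2.13 without replicate 3.

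miR-23b-5p had 0, 0 and 1 counts in 231 EV against 3, 0 and 1 in 231/ACO1 KD EV, and miR-27b-5p was seen only in 231 EV replicate 3, with 4 counts. With 0 counts taken to allow up to 3, the limit for a count of 0 was near 13.3 TPM in 231 EV and 44.2 TPM in 231/ACO1 KD EV replicate 2, and the upper Wilson bounds were higher, at 17.1 and 56.6 TPM. miR-3074-5p and miR-3074-3p, from the MIR3074 hairpin annotated on the strand opposite MIR24-1, had at most 4 counts and 1 count in any library. The 5p arms of the MIR24 hairpins were not analysed here.

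Seeds connect the members to few other miRNAs of the table. hsa-miR-23c (aUCACAUUgccagugauuaccc), the only other miRNA with the miR-23 seed, had at most 2 counts in a library. It differs from miR-23a-3p by G14U and U19A over 21 bases. hsa-miR-128-3p (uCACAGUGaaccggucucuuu) holds the run UCACAGUG from its base 1, which miR-27a-3p holds from base 2, so its seed is the miR-27 seed shifted by 1 base. It had 399, 396 and 354 counts in 231 EV against 558, 234 and 427 in 231/ACO1 KD EV. Its groups did not overlap on the TPM or the TMM scale, and it rose by 0.52 under TMM (standard error 0.17, edgeR adjusted p = 0.0295) and by 0.88 with library totals (edgeR adjusted p = 1.41e-05). The TMM call was lost in 5 of the 6 fits that left out 1 library, with edgeR adjusted p = 0.15, 0.15 and 0.176 without 231 EV replicates 1, 2 and 3 and 0.0923 and 0.0639 without 231/ACO1 KD EV replicates 1 and 2. It was also lost when TMM left out the 10 highest miRNAs (0.0562) and without a filter (0.0561). Against miR-27a-3p in the same library, in a ratio chosen after its values were seen, it was higher in 231/ACO1 KD EV in all 9 pairs of libraries, by 0.39 on the log2 scale (standard error 0.078, exact p = 0.1).

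The letters CAUUG, which the study draws as the place where ACO1 binds miR-33a, also occur in the miR-23 paralogs and in no other member. The study also reports pulldowns in which miR-33a with changed CAUUGC letters did not bring down ACO1, while miR-33a changed outside them did. They stand at bases 5 to 9 of miR-23a-3p and miR-23b-3p, running from the seed into the next base, and in hsa-miR-33a-5p (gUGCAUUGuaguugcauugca, seed in capitals) at bases 4 to 8 and 15 to 19. The base after CAUUG is C in both miR-23 paralogs. In hsa-miR-33a-5p it is C after the copy at bases 15 to 19 but not after that at bases 4 to 8. Only the mature strand was searched, for CAUUG and not for the longer CAUUGC. Such a match is a description and not a binding site. Of the 2370 mature sequences in the reference, 41 (1.73%) hold these letters, and of the 435 tested miRNAs with a matched sequence 18 (4.14%) do. hsa-miR-33a-5p had 50, 58 and 30 counts in 231 EV against 18, 6 and 24 in 231/ACO1 KD EV, or 222, 252 and 133 TPM against 102, 88.4 and 153 TPM. The TPM values overlapped (exact p = 0.2). It passed in edgeR with TMM at -1.1 (standard error 0.32, adjusted p = 0.0116) and did not with library totals at -0.77 (adjusted p = 0.0919). The TMM call was lost without 231 EV replicates 1 and 2 (edgeR adjusted p = 0.0544 and 0.15). It was lost too without 231/ACO1 KD EV replicates 1 and 2 (edgeR adjusted p = 0.0727 and 0.0582). DESeq2 (adjusted p = 0.0501) and limma with pseudocounts of 1 and 0.1 (adjusted p = 0.126 and 0.157) did not call it. The call held without replicate 3 of either group and in the remaining edgeR fits.

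Under TMM, 6 of the 18 miRNAs with CAUUG were called lower and 0 higher by edgeR, beside 24 lower and 6 higher among all 435 with a sequence. The miRNAs called lower include hsa-miR-33a-5p, from which the letters were taken, and the member miR-23a-3p. The study reports less secretion of miR-33a in this same comparison, so the list is not independent of the data. The median log2 fold change of the 18 was -0.50, against -0.061 for the 435. With library totals 1 of the 18 was lower and 3 were higher, beside 7 and 40 of the 435, and the median was -0.15 against 0.28. The change of scaling shifts all miRNAs by nearly the same step, so the second pair of medians repeats the first. Whether the letters have a part in these changes was not tested. Among the 110 matched miRNAs with a mean count of at least 50, the 9 with CAUUG had a median of -0.49 under TMM, against -0.079, and 6 of the 9 were below 0, beside 67 of the 110. Of these 9, 5 were called lower and 0 higher, beside 19 and 5 of the 110. The letters stood in 8.18% of the 110, a larger share than among all 435, and calls were more frequent among the 110 as well. Over all 18 with CAUUG, 12 were below 0, beside 238 of the 435. The 18 are not independent of each other, since paralogs such as the miR-23 pair share nearly all their letters. Of the miRNAs holding these letters, only those that passed the count filter and had a matched sequence entered.

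Among 123 miRNAs with a mean count of at least 50, those whose log2(TMM CPM + 1) followed the mean of the 5 3p members most closely over the 6 libraries were hsa-miR-138-5p (Pearson's r = 0.99), hsa-miR-107 (0.98) and hsa-miR-205-5p (0.98). The 6 libraries fall into 2 groups, so a miRNA that is lower in 231/ACO1 KD EV scores high by that alone. Under TMM they were at -1.0, -0.75 and -0.93 (standard errors 0.15, 0.17 and 0.26), each a larger decrease than that of any member.

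Of the markers of other cells, the leukocyte sum was higher in the knockdown and the red cell or serum sum lower, both without overlap. The 4 leukocyte miRNAs (miR-223-3p, miR-142-3p, miR-142-5p and miR-150-5p) summed to 8200 to 9660 TPM in 231 EV against 13431 to 15171 TPM in the knockdown, and the 2 red cell or serum miRNAs (miR-451a and miR-486-5p) to 1804 to 1947 and 1006 to 1328 TPM. The liver miRNA miR-122-5p ranged from 1094 to 1324 and from 985 to 1887 TPM, which overlapped. These values are on the TPM scale, where the smaller share of hsa-miR-21-5p lifts every other miRNA. None of these markers was at 0 in every library. The members are expressed in blood and vessel cells too, and the part of such sources in the members' levels was not tested.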

How the data were processed

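Small RNA libraries of MDA-MB-231 EVs (231 EV, n = 3, and 231/ACO1 KD EV, n = 3, grouped by the sample titles) had been sequenced as 50 nt reads. The authors trimmed the reads, kept 18 to 32 nt, removed matches to Rfam 10.1, matched what was left against miRBase 21.0 and added predicted miRNAs. The submitters' processing notes name Bowtie2, StringTie and hg38. The authors deposited read counts per miRNA and TPM values, in 1 table of 832 miRNAs, 50 of them predictions. The deposited TPM equalled the library share of the count, brought to 1 common sum, to within 4.99e-05. Total counts ranged from 67873 to 230562, which limits the precision for rare miRNAs. Whether reads mapping to several miRNAs were divided is not given in the sources used here.

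From the counts, the 517 miRNAs for which at least 3 of 6 libraries held a count above 0 were fitted with edgeR 4.0.16 (R 4.3.3; quasi-likelihood test, TMM, no covariates, Benjamini-Hochberg adjustment over all 517, threshold 0.05). The prior degrees of freedom were infinite, so each miRNA took its quasi-dispersion from the trend fitted over all miRNAs. A miRNA that varies more than this trend gets a p-value that is too small. The common negative binomial dispersion, another quantity, was 0.0433. Each standard error was derived from F and the fold change. Log2 ratios between members used counts + 0.5 and two-sided exact permutation tests. Single-library intervals are 95% Wilson intervals. The scripts were tested on simulated data. Mature sequences are from RefSeq and positions from GENCODE 29. Alternatives were other scalings, DESeq2 1.42.0, limma 3.58.1 on log2(TPM + 1) or log2(TPM + 0.1), edgeR's robust option, other filters, a replicate block and each library left out.

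The texts name the 6 members, the other products of their hairpins, miRNAs of the same seed, miR-128-3p, miR-33a-5p, the 3 of most similar pattern, miR-21-5p, and the marker miRNAs of MDA-MB-231, epithelium, red cells or serum, leukocytes and liver. Members, lists and tests were chosen with earlier results of these data known.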

Additional observations from a re-analysis of the deposited data

How the results depend on the processing

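The number of members past an adjusted p of 0.05 and the fold change of each member were recomputed under 17 alternatives, and each of the 7 ratios under 9. miR-23a-3p alone was called, as in the report, with DESeq2 size factors in edgeR, TMM without the 10 highest miRNAs, median centring, DESeq2, the robust option, no filter, a mean TPM of at least 10 and the replicate block. With library totals and with limma at a pseudocount of 1 or 0.1 the number was also 1, but the member was miR-27a-3p and the direction was upward. Leaving out each library in turn gave 0 to 3 members, with 3 reached only without 231/ACO1 KD EV replicate 3 and 0 without 231 EV replicate 1 or 3 or 231/ACO1 KD EV replicate 1 or 2. Under these 17 alternatives the sign of the fold change turned for miR-27b-3p alone, to -0.0036 without 231/ACO1 KD EV replicate 2, in a range up to 0.12 when single libraries were left out. The cause was not tested. No ratio moved by more than the spread between replicates. Same-numbered libraries correlated at -0.14, 0.044 and 0.23 in their deviations from the group means (226 miRNAs), so no common pattern by replicate number was seen. Such correlations cannot show whether libraries of 1 number were prepared together, which the sources used here do not say. With the replicate block miR-23a-3p was at -0.53 (edgeR adjusted p = 0.00783), and the block changed no call among the members. Depth limits miR-23a-5p and the rare arms, and 67873 counts in 231/ACO1 KD EV replicate 2 limit that library most.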
